A study of Mus musculus with 6 samples.

Results

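The 10 genes described here mark blood monocytes and the macrophages of the brain's borders, and they were followed in cortical RNA of mice at d10 after microglia depletion and of non-depleted control mice. The members are the rows of the deposited gene table with the symbols Ccr2, Ly6c2, Plac8, S100a4, Lyz2, F13a1, Mrc1, Cd163, Lyve1 and Ms4a7. All 10 were found among the 23366 genes of the table. The genes were listed for their known cell types, and the rule for choosing them uses no measured value. RNA came from brain cortex of C57BL/6 mice, with 1 library for each of 3 control mice, named A1, A2 and A3, and 3 depleted mice, named A4, A5 and A6. Per the study's methods, depleted mice carried 1 copy each of CX3CR1-CreERT2 and iDTR, littermate controls carried CX3CR1-CreERT2 alone, and mice of both genotypes were given tamoxifen. Depletion was by injected diphtheria toxin. Whether the control mice also received it, and the age of the mice, are not given in the sources used here. In this model the Cx3cr1 promoter drives Cre, so that any cell in which it was active at the time of tamoxifen can carry the toxin receptor.

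Monocytes leave the bone marrow, circulate in blood and enter inflamed tissue through CCR2, the receptor for the chemokine CCL2 and its relatives. Border macrophages live in the perivascular spaces, the meninges and the choroid plexus, carry scavenger receptors such as CD163 and the mannose receptor, and are distinct from the microglia of the parenchyma. Microglia, border macrophages and a part of the blood monocytes express Cx3cr1, and monocytes are replaced from the marrow within weeks whereas microglia are long-lived. In RNA of whole tissue, fewer cells of a type and less RNA per cell cannot be told apart.

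Values are FPKM, the fragments counted per length of transcript and per library size, which the authors scaled between libraries by the trimmed mean of M-values (TMM). On the log2(FPKM + 1) scale, limma was applied to 14385 genes, those whose average over the 6 mice reached 0.5 FPKM, at a Benjamini-Hochberg adjusted p under 0.1. Low values in a library are spaced by the worth of 1 fragment. This spacing gave estimated depths of about 14550000 to 20610000 fragments for the control libraries and 7200000 to 13760000 for the depleted ones, with the smallest number in A5. Cortical markers were present in each mouse, with Slc17a7, the vesicular glutamate transporter of cortical excitatory neurons, between 325.0 and 383.3 FPKM. Library A4 stood apart from the others. The 12 interferon-stimulated genes listed lay at a median of 3.39 above the control mean on the log2 scale in A4, and of 0.94 and 1.04 in A5 and A6. Transcripts of 4 Y-linked genes summed to 5.56 FPKM in A4 and to at most 0.16 FPKM in each other mouse, while Xist, the transcript of the inactive X chromosome, was at 30.9 FPKM in A4, at 4.74 FPKM in A3 and at 38.1 to 46.7 FPKM in the others. The part of sex or of the origin of these transcripts in the values of A3 and A4 was not tested.

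None of the 10 genes separated depleted from control mice. The 2 groups overlapped in every one of them, and were apart for 0 of the 10 genes, as against 15.1% of all genes above 0 in some mouse. With only 10 genes, a count of 0 cannot be told apart from that share. Of the 7 genes that passed the filter, 0 had an adjusted p under 0.1 in limma, as against 0.0278% of all genes tested, and the unadjusted p was under 0.05 for 2, Lyz2 and Ly6c2, as against 10.5% of all genes tested (4.79% for those higher in depleted mice, as both were). Ly6c2 passed the filter only through its level in depleted mice, so that nothing is read from this count. Without A4 it was 0 of 7, as against 13.2%. Mean levels were higher in depleted mice for S100a4, Ly6c2, Lyz2 and Lyve1 and differed little for Mrc1 and Cd163, and F13a1 was lower. Mouse A4 was the highest of the 6 in 4 of the 7 tested members, as against 26.9% of all genes tested, and also in Plac8 and Ms4a7 among the members under the filter. Ly6c2 is among these 4, and its level in A4 helped it pass the filter, so that nothing is read from this count either. The lowest p that an exact permutation test of 3 mice against 3 can give is 0.1, and the lowest of any member was 0.2.

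**Figure D1:**
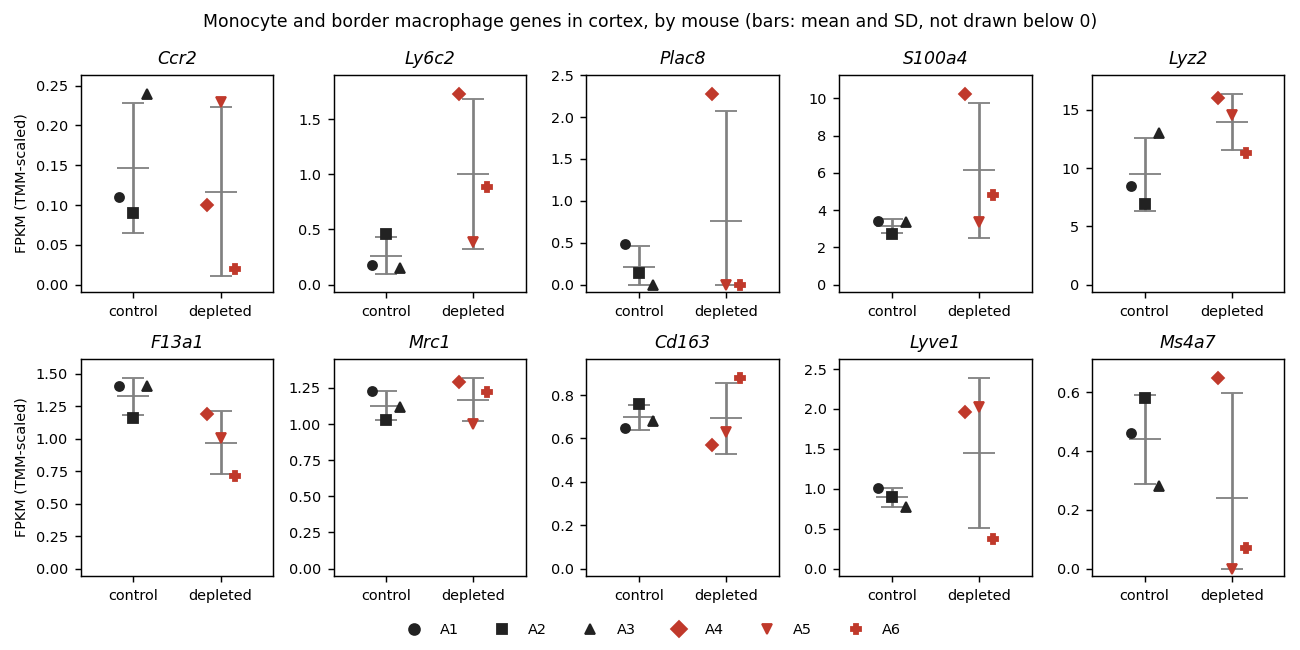
FPKM of the 10 genes in each mouse, with control mice A1 to A3 in black, depleted mice A4 to A6 in red, and grey bars for the mean and SD of each group (n = 3), not drawn below 0. The groups overlap in every panel, and A4 is the highest mouse for Ly6c2, Plac8, S100a4, Lyz2, Mrc1 and Ms4a7.

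Ccr2, the receptor by which inflammatory monocytes follow CCL2, was close to the limit of detection in both groups. It stood at 0.11, 0.09 and 0.24 FPKM among controls, against 0.10, 0.23 and 0.02 FPKM among depleted mice. With the longest coding transcript taken as its length, these values come to about 1 to 25 fragments per library. The highest control and the highest depleted mouse were nearly level, and A4 was below the mean of the control mice (two-sided exact permutation p = 0.7). Ccr2 did not pass the filter, and at this depth no difference was detectable.

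Ly6c2 encodes the Ly6C surface antigen by which classical monocytes are recognised in flow cytometry. Its values were 0.18, 0.46 and 0.15 FPKM among controls, against 1.73, 0.39 and 0.88 FPKM among depleted mice. A4 and A6 were above every control mouse, and A5 lay inside the control range. The means were 0.263 ± 0.171 FPKM among controls and 1.00 ± 0.678 FPKM among depleted mice (SD, n = 3 each), with 0.62 as the log2 fold change on the log2(FPKM + 1) scale (limma SE 0.26, 95% interval 0.03 to 1.20, with adjusted p = 0.458). Without A4 the log2 fold change was 0.36 (adjusted p = 0.503 in limma). Ly6c2 passed the filter through its level in depleted mice, since its control mean lies under 0.5 FPKM, and its values come to about 2 to 20 fragments per library.

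The assignment of reads to Ly6c2 is uncertain, because its neighbour on chromosome 15, Ly6c1, is expressed by brain endothelium at a far higher level and has nearly the same sequence. Their coding sequences differ at 9 bases, or 97.7% identity, and 21.9% of the 75-base windows of the Ly6c2 transcript also occur in transcripts of Ly6c1. The first 120 coding bases are shown, as given by GENCODE M21, since they hold 6 of the 9 differences by which a read can be assigned to one gene or the other. Capitals mark the bases that differ.
Ly6c2: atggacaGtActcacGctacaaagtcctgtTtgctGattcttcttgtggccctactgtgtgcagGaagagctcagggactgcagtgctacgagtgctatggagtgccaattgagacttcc
Ly6c1: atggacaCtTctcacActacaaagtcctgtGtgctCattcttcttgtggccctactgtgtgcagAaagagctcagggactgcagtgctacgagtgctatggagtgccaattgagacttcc
Ly6c1 itself was at 23.9, 26.3 and 29.2 FPKM among controls, against 31.2, 30.3 and 25.6 FPKM among depleted mice, with 0.13 as the log2 fold change (limma SE 0.11, with adjusted p = 0.687). The FPKM of Ly6c2 thus came to between 0.51% and 1.75% of that of Ly6c1 in control mice, and to 5.55%, 1.29% and 3.43% in A4, A5 and A6. How many of these reads came from Ly6c1 was not tested.

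Plac8, a small cysteine-rich protein of monocytes and other leukocytes, was above 0 in 2 control mice and 1 depleted mouse. It was at 0.49, 0.14 and 0 FPKM in control mice, at 2.28 FPKM in A4, and listed at 0 in A5 and A6. Its mean over all mice, 0.485 FPKM, left it just under the filter. The value of A4 corresponds to about 38 fragments and that of A1 to about 9, while A5 and A6 had lower estimated depths than any control. With A4 the mean of the depleted mice was above that of the control mice, and without A4 it was 0 (two-sided exact permutation p over all 6 mice = 1.0).

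S100a4, a calcium-binding protein found in monocytes, fibroblasts and some glia, had the largest log2 fold change of the tested members on the log2(FPKM + 1) scale. This rank depended on the added 1. With 0.1 added instead, Ly6c2 was above S100a4, at 1.496 against 0.786. Control mice were close together at 3.39, 2.73 and 3.36 FPKM. Depleted mice stood at 10.3, 3.36 and 4.79 FPKM, so that A4 was far above, A6 was above, and A5 equalled a control mouse. The means were 3.16 ± 0.373 FPKM among controls and 6.13 ± 3.64 FPKM among depleted mice (SD, n = 3 each), with 0.66 as the log2 fold change (limma SE 0.30, 95% interval -0.03 to 1.36, with adjusted p = 0.490). It was 0.28 without A4 (adjusted p = 0.509 in limma), below Lyz2 and Ly6c2 in the same fit. In GENCODE M21, 53.8% of the windows of S100a4 are shared with the overlapping gene model Gm42674, for which no value was used here.

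Lyz2, the lysozyme of monocytes, macrophages and activated microglia, was the most abundant of the 10 genes per length in both groups. Control mice were at 8.44, 6.94 and 12.96 FPKM and depleted mice at 16.04, 14.52 and 11.27 FPKM. A4 and A5 were above every control mouse, and A6 was below control mouse A3. The mean was 9.45 ± 3.13 FPKM among controls and 13.9 ± 2.44 FPKM among depleted mice (SD, n = 3 each), with 0.54 as the log2 fold change (limma SE 0.21, 95% interval 0.06 to 1.02, with adjusted p = 0.438). With A4 left out it was 0.44 (adjusted p = 0.454 in limma), the smallest proportional loss among the 3 genes of the monocyte group that were higher.

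Lyz2 lies beside its copy Lyz1 on chromosome 10, the lysozyme of the intestinal Paneth cell. The coding sequences differ at 22 of 444 bases, and 5.96% of the 75-base windows of Lyz2 are shared. Coding bases 37 to 156 of both genes, from GENCODE M21, hold 14 of these differences and are shown because they tell reads of the 2 genes apart. Capitals again mark the differing bases.
Lyz2: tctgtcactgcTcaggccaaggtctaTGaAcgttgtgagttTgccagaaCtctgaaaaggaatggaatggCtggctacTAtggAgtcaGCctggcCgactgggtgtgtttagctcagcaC
Lyz1: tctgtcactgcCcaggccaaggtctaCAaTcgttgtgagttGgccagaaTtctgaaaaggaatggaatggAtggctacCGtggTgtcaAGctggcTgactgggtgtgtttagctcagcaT
Lyz1 was at 0.59, 0.82 and 0.64 FPKM among controls, against 1.57, 0.66 and 0.80 FPKM among depleted mice (log2 fold change 0.23, SE 0.20, adjusted p = 0.702 in limma). The summed FPKM of both genes was 10.1 ± 3.07 among controls and 15.0 ± 2.78 among depleted mice (SD, n = 3 each), close to the values of Lyz2 alone.

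F13a1, the catalytic subunit of coagulation factor XIII, is made by monocytes and by border macrophages. It was the one tested member of the monocyte group that was lower, at 1.41, 1.16 and 1.41 FPKM among controls, against 1.19, 1.01 and 0.71 FPKM among depleted mice. The groups overlapped only through A2 and A4. The means were 1.33 ± 0.144 FPKM among controls and 0.970 ± 0.243 FPKM among depleted mice (SD, n = 3 each), with -0.25 as the log2 fold change (limma SE 0.16, 95% interval -0.61 to 0.12, with adjusted p = 0.610), and it was -0.33 without A4.

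Among the border macrophage genes, Mrc1 and Cd163 had the narrowest 95% intervals of the 7 tested members on the log2(FPKM + 1) scale. Because 1 is added to low FPKM values, these intervals understate the range of folds in FPKM. Mrc1, the mannose receptor CD206, was at 1.23, 1.03 and 1.12 FPKM among controls, against 1.29, 1.00 and 1.22 FPKM among depleted mice. Its log2 fold change was 0.03 (limma SE 0.14, with adjusted p = 0.961), with a 95% interval from -0.30 to 0.36, and it turned to -0.01 without A4. Cd163, the scavenger receptor for haemoglobin bound to haptoglobin, was at 0.65, 0.76 and 0.68 FPKM among controls, against 0.57, 0.63 and 0.88 FPKM among depleted mice. The log2 fold change of Cd163 was -0.01 (limma SE 0.16, with adjusted p = 0.991), with a 95% interval from -0.36 to 0.35, and it turned to 0.05 without A4. For both genes the difference between the groups was smaller than the spread between mice.

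Lyve1, the hyaluronan receptor of one subset of border macrophages and of lymphatic endothelium, varied more within the depleted group than among controls. Control mice were at 1.01, 0.90 and 0.77 FPKM. A4 and A5 were above them at 1.96 and 2.03 FPKM, whereas A6 was below them at 0.37 FPKM. The log2 fold change was 0.29 (limma SE 0.30, 95% interval -0.39 to 0.96, with adjusted p = 0.750). It was 0.11 without A4, 0.09 without A5 and 0.66 without A6. Of the lymphatic endothelial markers, Prox1 was between 1.63 and 2.17 FPKM and Flt4 between 0.17 and 0.37 FPKM in all mice, and Ccl21a was listed at 0 in every depleted mouse and in 1 control mouse.

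Ms4a7, a membrane protein that separates border macrophages from microglia, was under the filter. It was at 0.46, 0.58 and 0.28 FPKM in control mice. In depleted mice it was highest of all in A4, at 0.65 FPKM, was listed at 0 in A5, and reached 0.07 FPKM in A6, or about 1 fragment (two-sided exact permutation p = 0.4). The estimated depths of A5 and A6 were also the lowest of the 6.

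**Figure D2:**
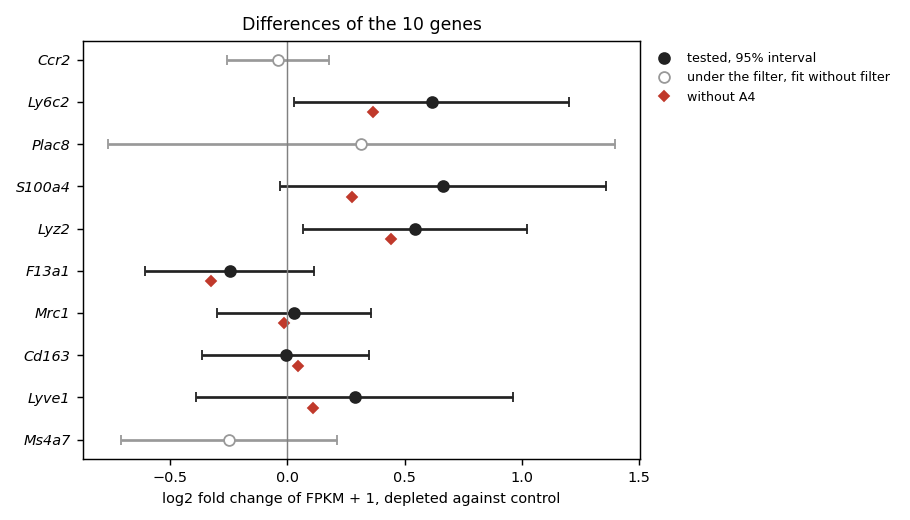
Log2 fold change of FPKM + 1, depleted against control, with its 95% interval from limma for the 7 genes tested (black) and, from the fit without a filter, for the 3 genes under it (grey), and the value with mouse A4 left out (red). The intervals of Mrc1 and Cd163 include 0, and those of Ly6c2 and Lyz2 start just above it. At low levels the added 1 makes intervals narrower than those of the fold in FPKM.

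Other genes of the same cell types were read in the same way. Of 21 further blood monocyte genes, 10 passed the filter, of which 5 were higher and 5 lower, with a median of -0.03 on the log2 scale, where the whole table had -0.009. None had an adjusted p under 0.1 in limma, and Ccl9 alone had an unadjusted p under 0.05, as against 10.5% of all genes tested. Single genes of the list went both ways. Clec4e was listed at 0 in all mice, and Chi3l3 was at 0.03 to 0.11 FPKM in control mice and listed at 0 in all depleted mice. Clec4a1 was at 0.26, 0.19 and 0.38 FPKM among controls, against 0.60, 1.25 and 0.45 FPKM among depleted mice, without overlap, and it passed the filter through the latter. Ms4a6c was highest in A4, at 3.19 FPKM, with 0.46 as the log2 fold change and 0.15 without A4. Ms4a4c was at 0.38, 0.16 and 0.98 FPKM in the depleted mice and at 0, 0 and 0.16 FPKM in controls. Ccl9, a chemokine, was highest of the tested genes of this list at 0.51 (limma SE 0.20, with adjusted p = 0.440), and Ace, an enzyme of non-classical monocytes and of the choroid plexus, was lowest at -0.16.

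Of 20 further border macrophage genes, 13 were tested, of which 5 were higher and 8 lower, with a median of -0.11. Among the higher ones, Clec10a, Mgl2 and Cd36 had control means under 0.5 FPKM and passed the filter only through the depleted mice. Their direction was thus fixed by the filter. Pf4, the platelet factor that border macrophages also express, was at 1.38, 3.23 and 2.03 FPKM among controls, against 0.12, 1.90 and 0.60 FPKM among depleted mice. Its log2 fold change of -0.85 (limma SE 0.35, with adjusted p = 0.451), or -0.54 without A4, was the lowest of the list, and Clec10a was highest at 0.38. Stab1, the scavenger receptor stabilin-1, was at 2.04, 2.25 and 2.28 FPKM among controls, against 1.41, 1.92 and 1.18 FPKM among depleted mice, the only gene of the list whose groups did not overlap (log2 fold change -0.36, SE 0.15, adjusted p = 0.465 in limma). Over all genes tested, 17.6% did not overlap. These lists, like the members, hold genes that other cells also express.

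Among the ligands and adhesion molecules that draw monocytes into tissue, Ccl5, a chemokine for monocytes and T cells, had the highest log2 fold change. It was at 0.25, 0.37 and 0.20 FPKM among controls, against 11.67, 2.10 and 9.50 FPKM among depleted mice. The log2 fold change of 2.55 (limma SE 0.46, with adjusted p = 0.283) was 2.17 without A4. Ccl2 was at 4.02 FPKM in A4, at 0 and 0.11 FPKM in A5 and A6, and at no more than 0.17 FPKM in control mice. Ccl12, a further ligand of CCR2, was at 0.38, 0.36 and 0.50 FPKM among controls, against 24.6 FPKM in A4 and 1.04 and 1.32 FPKM in A5 and A6. The groups did not overlap, and the log2 fold change was 1.81 (limma SE 0.83, with adjusted p = 0.492), or 0.62 without A4. Of the 10 genes of this list that were tested, 8 were higher and 2 lower, but Ccl2, Ccl5, Ccl7 and Ccl12 had control means under 0.5 FPKM and passed the filter only through the depleted mice, so that their direction was fixed by it. The groups did not overlap for 4 genes, Ccl5, Ccl7, Ccl12 and Csf1, as against 17.6% of all genes tested. The median log2 fold change was 0.23 with A4 and 0.02 without it. Without A4, 3 genes had an unadjusted p under 0.05 in limma, as against 13.2% of all genes tested. Since Ccl5, Ccl7 and Ccl12 passed only through the depleted mice, nothing is read from these counts. Sele and Selp, the endothelial selectins, did not exceed 0.02 FPKM in any mouse.

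Mouse A4, which had the highest Ly6c2, Plac8, S100a4 and Lyz2, had the lowest globin level of the 6 mice. The FPKM of the alpha and beta globin genes, the main transcripts of red cells, summed to 25.9 in A4, to 154.0 and 166.1 in A5 and A6, and to between 90.4 and 188.5 in control mice. The sums are given because Hba-a1 and Hba-a2 are near-identical copies whose reads cannot be assigned singly. Across the 4 tested monocyte members the median deviation from the control mean, on the log2(FPKM + 1) scale, was 0.93 for A4, with A5 and A6 at 0.11 and 0.38. The 3 tested border macrophage members gave 0.11, -0.06 and 0.06. Ly6c2, among the monocyte members, passed the filter only through its level in depleted mice, so that no separation is read from their median. The part of blood left in the tissue, or of the interferon response of A4, in these values was not tested.

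**Figure D3:**
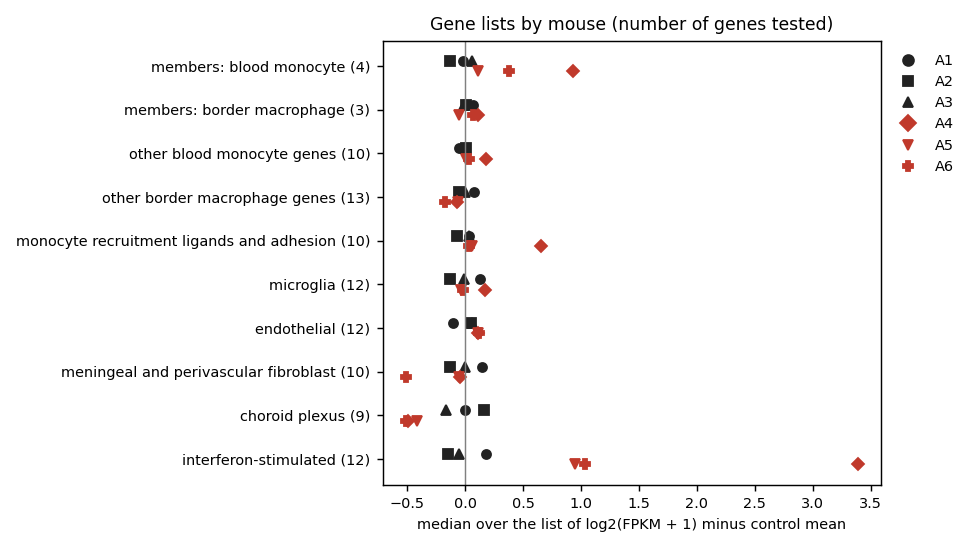
Median over each gene list of log2(FPKM + 1) minus the mean of the control mice, for control mice A1 to A3 (black) and depleted mice A4 to A6 (red), with the number of genes tested in brackets. All 3 depleted mice lie above all controls for interferon-stimulated genes, for the monocyte members (0.93, 0.11 and 0.38, against at most 0.06), for endothelial genes and, narrowly, for the other blood monocyte genes, and below them for choroid plexus and the other border macrophage genes. Both monocyte lists hold a gene, Ly6c2 and Clec4a1, that passed the filter only through the depleted mice. Nothing is therefore read from the separation of these lists.

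Genes of the tissues around border macrophages were compared as well. All 9 tested choroid plexus genes were lower in depleted mice, with a median log2 fold change of -0.43, a range of the deviations from -0.51 to -0.42 over the depleted mice, and Ttr, the transthyretin carrier, lowest at -1.91 (adjusted p = 0.151 in limma). Of 10 meningeal and perivascular fibroblast genes, 9 were lower, with a median of -0.21, and A6, in which Lyve1 and F13a1 were lowest, deviated by -0.52. Dcn, the decorin of these fibroblasts, had the highest log2 fold change of that list at 0.03 and Igf2 the lowest at -0.66. The part of dissected border tissue in the values of Lyve1, F13a1, Pf4 and Stab1 was not tested. Endothelial genes had a median of 0.09 over 12 genes, with 9 higher, and pericyte and smooth muscle genes had a median of -0.06 over 8 genes.

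Microglia genes allow the same comparison for the cell type that had been depleted. The study describes the microglia present at d10 as repopulated cells. Of 12 genes tested, 9 were higher and 3 lower at d10, with a median log2 fold change of 0.07, or -0.03 without A4. Fcrls was the lowest at -0.90 and Trem2, a lipid receptor of activated microglia, the highest at 0.50 (adjusted p = 0.370 and 0.378 in limma). Cx3cr1 itself was between 3.94 and 4.91 FPKM in all 6 mice, well above the levels of the monocyte receptor Ccr2 per length. Of these genes 3 were higher and 2 lower in every depleted mouse than in every control mouse, against 0 of the 7 tested members, where 17.6% of all genes tested did not overlap. With so few genes in both lists, nothing is read from this contrast.

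The genes whose levels over the 6 mice most resembled each tested member were found by Pearson's r on log2(FPKM + 1), as a description over both groups. For S100a4 they were Taf1d, Xaf1 and Tap1 (r = 0.998, 0.997 and 0.995, n = 6 mice), of which Xaf1 and the peptide transporter Tap1 are interferon-inducible and highest in A4. For Ly6c2 they were 1700048O20Rik, Rbm34 and Ppp1r15b (r = 0.997, 0.996 and 0.995). Lyz2 was nearest to 2610008E11Rik, Kif22 and Slc39a9 (r = 0.987, 0.987 and 0.986). Mrc1 was nearest to B630019K06Rik, Tspan4 and the leukocyte tetraspanin Cd37 (r = 0.992, 0.986 and 0.982). None of the 3 genes nearest to any tested member was itself a member.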

How the data were processed

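Cortical RNA of 3 control and 3 depleted mice was analysed, 1 library per mouse. The labels give no litter, batch or date. The authors deposited FPKM values per gene symbol, scaled with TMM factors and given to 2 decimals. Per the study's methods, TruSeq libraries with poly(A) selection were read as 75 bp pairs, aligned with TopHat and quantified with RSEM on known transcripts. The submitters' processing notes name build mm9 and DESeq; tool versions are not given in the sources used here. GENCODE M21 (GRCm38) served for transcript sequences, matched by symbol, and no coordinates were used.

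Of 23366 genes, 4451 were at 0 in every mouse. Genes averaging 0.5 FPKM or more, 14385 in number, were compared on log2(FPKM + 1) with limma 3.58.1 in R 4.3.3 (eBayes with trend, Benjamini-Hochberg adjustment over all genes tested, threshold 0.1, no covariate). On data simulated with normal noise, the fit called 171 of 200 genes given a log2 change of 1, and 0 where none was given. The changed genes had means above 1 on the log2 scale, which leaves out Ly6c2 and Cd163, and no simulated mouse deviated as A4 did. The share called therefore does not carry over to the members. In the measured data 0 of the 12 interferon-stimulated genes were called. The log2(FPKM + 1) scale makes differences of weakly expressed genes look smaller than they are. Depth was estimated from single-transcript genes of 400 to 1500 bases, and each estimate includes the TMM factor of the library. On 3 libraries simulated with the same genes, lengths and model, the largest error was 0.115%. This checks the search for the spacing, and not the transcript lengths assumed.

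The members, the lists and the tests were chosen with earlier results of these data known. Genes named in the text are all members, the first 2 genes and the tested genes of highest and lowest log2 fold change of each list, near relatives of members, and the 3 genes most like each tested member. Ms4a7, Plac8 and Ccr2, under the filter, were fitted only without it. Chi3l3, Clec4e, Clec4a1, Ms4a4c, Ms4a6c, Mgl2, Cd36, Stab1, Csf1, Cxcr2, Cd3g, Ccl12, Sele, Selp, Cx3cr1, Xist, Xcr1, Gzmb, Ms4a1, Ccl21a and Slc17a7 fall outside this rule and were added after their values were seen. Some genes covered by the rule are not reported here. Python 3.11.15, numpy 2.4.6, pandas 2.3.3 and matplotlib 3.10.9 ran the remaining steps.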

Additional observations from a re-analysis of the deposited data

How the results depend on the processing

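None of the members that entered a fit had an adjusted p under 0.1 in limma in the 16 alternatives, which were array weights, robust eBayes, eBayes without trend, quantile normalization, scaling by median of ratios or to TPM, a filter at 1 FPKM or none, a threshold of 0.05, a pseudocount of 0.1, and each mouse left out in turn. Ccr2, Ms4a7 and Plac8 have an adjusted p only without a filter, and Ly6c2 and Cd163 have none with the filter at 1 FPKM. The lowest adjusted p of any tested member was 0.220 (Ly6c2, without A5). The 4 genes called over the whole table became 20 with array weights and 2 with eBayes without trend, and ranged from 2 (without A1) to 29 (without A5) with 1 mouse left out, with 8 without A6. The median log2 fold change of the tested members, 0.29, ran from 0.091 to 0.633 with 1 mouse left out, the highest without A6. Without a filter, which takes in all members, it was 0.158. Ly6c2 passed the filter only through the depleted mice, so that nothing is read from the filtered median. Mrc1 and Cd163, both near 0, changed sign: Mrc1 was at -0.014 with array weights and from -0.012 to 0.085 with 1 mouse left out, and Cd163 at 0.018 with array weights and from -0.084 to 0.046. Ly6c2 (0.36 to 0.85), Lyz2 (0.37 to 0.77), S100a4 (0.28 to 0.96), Lyve1 (0.09 to 0.66) and F13a1 (-0.33 to -0.15) kept their direction with each mouse left out, and the cause of these shifts was not tested. With a pseudocount of 0.1 the log2 fold change was 1.496 for Ly6c2 and 0.786 for S100a4, the reverse of their order in the main fit. The median of all genes was between -0.0139 and -0.0046 under the 3 other scalings. Ccr2, Ms4a7 and Plac8 rest on few fragments, so that depth limits what can be said of them. No paired analysis was possible because the labels give the groups no shared replicate numbers. Nothing says more than that the libraries came from separate mice, and with 3 mice against 3 the p-values measure the spread between these mice.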

Other observations

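Markers of other blood cells were mostly at or near 0. Of 12 neutrophil genes listed, 4 passed the filter, of which 2 were higher and 2 lower on average. Csf3r, the receptor for granulocyte colony-stimulating factor, was highest with 0.33 as the log2 fold change (1.54, 1.31 and 1.25 FPKM among controls, against 2.28, 1.42 and 2.32 FPKM among depleted mice), and Cxcr2 was at 0.29. S100a9, an alarmin of neutrophils and monocytes, was at 1.94, 1.00 and 1.11 FPKM among controls, against 0.30, 1.14 and 0.18 FPKM among depleted mice, with -0.64 as the log2 fold change (limma SE 0.26, with adjusted p = 0.451). Its partner S100a8 was highest in A5, at 4.98 FPKM, and lowest in A6, at 0.45 FPKM. Among the 13 lymphocyte genes, Cd3e, a chain of the T-cell receptor complex, was listed at 0 in every depleted mouse and did not exceed 0.07 FPKM in control mice. Its partner chains Cd3d and Cd3g were at 1.08 and 0.42 FPKM in A4, and at no more than 0.13 and 0.05 FPKM in any other mouse. Ms4a1 and Gzmb were listed at 0 in all mice. Cd4 and Lck, the 2 tested lymphocyte genes, were both lower on average in depleted mice, at -0.20 and -0.24. Of the 9 dendritic cell genes, Itgax, the integrin CD11c that activated microglia also carry, was at no more than 0.08 FPKM among controls. It was at 1.46 FPKM in A4 and at 0.42 and 0.44 FPKM in A5 and A6. The groups did not overlap, although the mean of Itgax left it under the filter. Xcr1 and the interferon-stimulated gene Bst2 were also higher without overlap, and the groups overlapped for the other genes of the list. Of all genes above 0 in some mouse, 15.1% did not overlap.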
